A study of Homo sapiens with 12 samples.

Results

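The genes described here are 10 members of the bone morphogenetic protein (BMP) pathway, chosen by symbol from the 23346 genes of the table. They are the ligands *BMP2*, *BMP4* and *BMP7*, the receptors *BMPR1A* and *BMPR2*, the pseudoreceptor *BAMBI*, the inhibitory SMAD gene *SMAD6*, and the target genes *ID1*, *ID2* and *ID3*. BMP ligands bring together type I and type II serine/threonine kinase receptors, which phosphorylate SMAD1, SMAD5 and SMAD9. These SMADs join SMAD4 and move to the nucleus, where the ID genes are among their best known direct targets. ID proteins lack a DNA binding region and hold E proteins away from DNA, and in pancreatic cancer the pathway is known both for growth control and for epithelial to mesenchymal transition.

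Sequencing covered polyadenylated RNA of SW1990 and of CFPAC-1, both established human pancreatic adenocarcinoma lines, after cell sorting with GCTM-5, an antibody to a cell surface glycoprotein complex related to CA 19-9. Each line was divided into GCTM-5 positive cells, which stained strongly, and GCTM-5 negative cells, with 3 samples in each of the 4 groups. No drug, ligand or genetic change was applied to any group, and the parent lines were themselves heterogeneous for the antigen. Neither the labels nor the paper says whether the 3 sorts of a group came from separate cultures, so p-values measure the spread between these samples, which may be technical.

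Values are RPKM, reads scaled by gene length and by library size. Libraries held 9969697 to 26159330 reads, with the lowest total in CFPAC-1 positive replicate 3. Calling a gene took a change of more than 2-fold and an unadjusted p under 0.01 in limma, which was fitted on log2(RPKM + 0.1) for the 16236 genes whose mean RPKM reached 0.1. Fold changes below are on that scale, and adjusted p-values are limma's with Benjamini-Hochberg adjustment over all those genes. Of the 10 genes, 9 passed the filter, and *BMP7* did not.

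The labelled tissue was checked against markers, and a gene of antigen synthesis was looked at beside them. All 6 markers of duct epithelium (*KRT7*, *KRT8*, *KRT18*, *KRT19*, *EPCAM* and *CDH1*) were detected in every group, with a summed RPKM of 1595 to 1942 in SW1990 negative samples, 4360 to 4841 in SW1990 positive, 5411 to 6173 in CFPAC-1 negative and 6676 to 8162 in CFPAC-1 positive samples. *FUT3*, a fucosyltransferase that makes Lewis antigens, was at 0.514 to 1.75 RPKM in SW1990 negative and 19.8 to 35.5 in SW1990 positive samples, and at 0.387 to 0.547 and 3.18 to 5.27 in the negative and positive samples of CFPAC-1. *FUT3* was thus higher in all antigen positive samples of both lines. The paper had reported this gene as higher in positive cells from these same samples, so its level is no separate check of the sort.

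In SW1990, most of the pathway genes were lower in GCTM-5 positive cells. *ID3*, *BMP2*, *BAMBI*, *SMAD6*, *ID2* and *BMPR2* fell between 2.11-fold and 12.4-fold, and none of the 9 genes tested was called higher. In CFPAC-1, *ID2* fell 2.08-fold, *ID3* rose 3.01-fold, and the other 7 genes were not called. By count, 6 of 9 genes were called lower in SW1990, where 7.48% of all genes tested were called lower and 12.1% were called in either direction. In CFPAC-1, 2 of 9 were called, against 9.78% of all genes (5.65% higher and 4.13% lower). All 3 positive samples were below all 3 negative ones for 7 of 9 genes in SW1990, beside 25.4% of all genes, and above them for 1, beside 17.9%. In CFPAC-1 they were below for 3, beside 20.4%, and above for 1, beside 28.1%. The median log2 fold change of the 9 genes was -1.77 in SW1990 and -0.11 in CFPAC-1, beside -0.04 and 0.05 over all genes. The genes were chosen with earlier results of these data known, so these counts and medians are no independent test. As these are bulk samples, fewer cells of a type and less RNA per cell cannot be told apart.

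**Figure D1:**
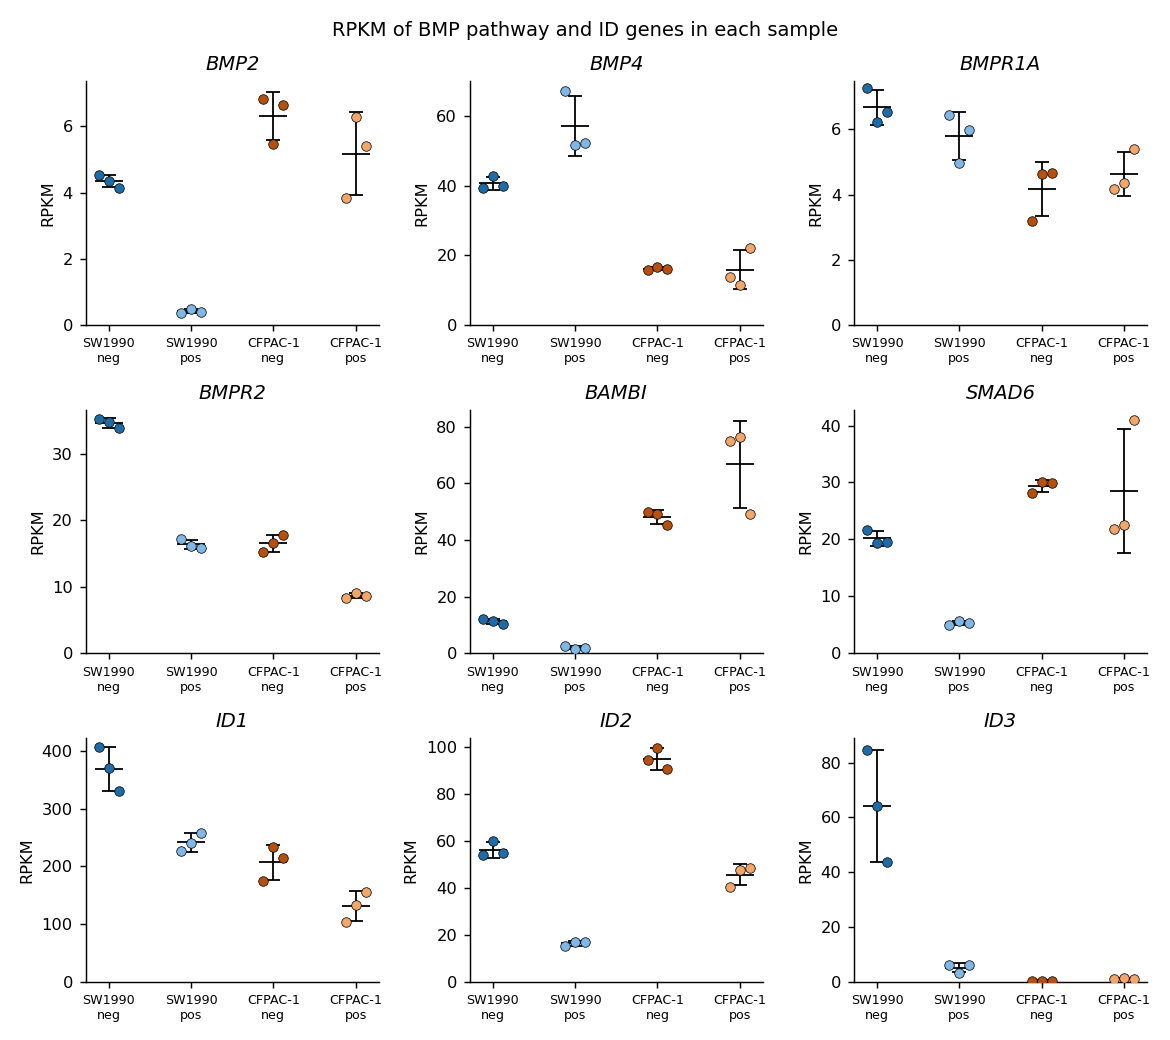
RPKM of the 9 genes tested in each sample, with one panel per gene and a linear axis from 0; points are the 3 samples of a group and bars the mean and SD. The SW1990 positive samples lie below all SW1990 negative samples for *BMP2*, *BMPR2*, *BAMBI*, *SMAD6*, *ID1*, *ID2* and *ID3*, and *ID3* is near 0 in all CFPAC-1 samples.

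The ligands differed from one another. *BMP2* (GRCh37, chromosome 20, 6748333 to 6760893, plus strand) was at 4.53, 4.36 and 4.15 RPKM in SW1990 negative samples and at 0.360, 0.486 and 0.394 in SW1990 positive samples. It was at 6.82, 5.47 and 6.64 RPKM in CFPAC-1 negative samples and at 3.82, 6.29 and 5.41 in CFPAC-1 positive samples. The SW1990 positive samples were thus apart from all others, with 22 to 26 reads each, while the CFPAC-1 groups overlapped. *BMP2* fell by 3.12 on the log2 scale in SW1990 (SE 0.19, limma, adjusted p = 3.00e-07) and had a log2 fold change of -0.30 in CFPAC-1 (95% interval -0.71 to 0.10, adjusted p = 0.224).

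*BMP4* (chromosome 14, 54416454 to 54425479, minus strand) was at 39.4, 42.8 and 40.0 RPKM in SW1990 negative and 67.3, 51.9 and 52.4 in SW1990 positive samples. All SW1990 positive samples were above the negative ones, but the log2 fold change of 0.48 missed the threshold (95% interval 0.06 to 0.89, limma, adjusted p = 0.0821). In CFPAC-1, *BMP4* was between 15.9 and 16.6 RPKM in the negative samples and at 13.8, 11.5 and 22.2 in the positive ones, which lay on both sides of the negative ones. Its log2 fold change of -0.09 in CFPAC-1 became -0.36 without CFPAC-1 positive replicate 3, the shallowest library. Per length, *BMP4* was the more abundant ligand in every group, and the ratio of its RPKM to that of *BMP2* was 9.39 ± 0.602 in SW1990 negative, 142 ± 40.9 in SW1990 positive, 2.59 ± 0.381 in CFPAC-1 negative and 3.18 ± 1.19 in CFPAC-1 positive samples (SD, n = 3 each). *BMP7* (chromosome 20, 55743809 to 55841697, minus strand) was at 0 in 11 of 12 samples and at 0.0281 RPKM, which is 1 read, in SW1990 negative replicate 3. No change could be computed for it at this depth.

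Of the receptors, the type II receptor *BMPR2* (chromosome 2, 203241050 to 203432474, plus strand) was lower in the positive cells of both lines. Its RPKM was 35.2, 34.8 and 33.8 in SW1990 negative samples and 17.1, 16.2 and 15.9 in SW1990 positive samples. In CFPAC-1 it was 15.2, 16.6 and 17.8 in negative and 8.36, 9.12 and 8.58 in positive samples. Neither pair of groups overlapped. The change was 2.11-fold in SW1990 (log2 -1.07, SE 0.08, limma, adjusted p = 1.87e-06) and 1.89-fold in CFPAC-1 (log2 -0.92, SE 0.08, limma, adjusted p = 2.33e-05), so that only the first was past the 2-fold threshold. With each sample centred on its median, the CFPAC-1 change was -1.02 and was called. The changes in the lines differed by -0.16 (95% interval -0.41 to 0.10, limma, adjusted p = 0.354).

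The type I receptor *BMPR1A* (chromosome 10, 88516353 to 88692582, plus strand) was between 3.20 and 7.28 RPKM in all 12 samples, and positive and negative samples overlapped in both lines. Its log2 fold changes were -0.21 in SW1990 (95% interval -0.58 to 0.17) and 0.16 in CFPAC-1 (-0.21 to 0.54), with limma adjusted p-values of 0.417 and 0.481. It was the least variable of the genes tested, with the highest group mean 1.60 times the lowest.

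*BAMBI* (chromosome 10, 28966439 to 28971861, plus strand) encodes a receptor-like membrane protein without a kinase domain that dampens signalling and is itself induced by it. It was at 12.2, 11.3 and 10.2 RPKM in SW1990 negative samples and at 2.42, 1.57 and 2.03 in SW1990 positive samples. In CFPAC-1 it was at 49.7, 49.1 and 45.2 RPKM in negative samples and at 74.7, 76.3 and 49.0 in positive samples. The SW1990 groups were far apart, while in CFPAC-1 positive replicate 3 fell among the negative samples. *BAMBI* fell by 2.44 on the log2 scale in SW1990 (SE 0.18, limma, adjusted p = 1.25e-06), and its log2 fold change in CFPAC-1 was 0.45 (95% interval 0.06 to 0.83, adjusted p = 0.0691). Without CFPAC-1 positive replicate 3 the latter was 0.65 (adjusted p = 0.00610), still under 2-fold.

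*SMAD6* (chromosome 15, 66994574 to 67075187, plus strand) encodes an inhibitory SMAD that blocks type I receptors and is part of the negative feedback of the pathway. It was at 21.7, 19.4 and 19.5 RPKM in SW1990 negative samples and at 4.98, 5.58 and 5.38 in SW1990 positive samples. In CFPAC-1 it was at 28.1, 30.1 and 29.8 RPKM in negative samples and at 21.8, 22.6 and 41.0 in positive samples. Positive replicate 3 of CFPAC-1 was thus above every negative sample while the other 2 were below all of them. *SMAD6* fell by 1.91 on the log2 scale in SW1990 (SE 0.19, limma, adjusted p = 1.40e-05). In CFPAC-1 its log2 fold change was -0.11 (95% interval -0.52 to 0.31, adjusted p = 0.695), and -0.40 without positive replicate 3 (adjusted p = 0.00414), which is under 2-fold.

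The ID genes, the targets among the 10, did not all move in one direction. *ID1* was the most abundant of the 10 genes in every group, *ID2* fell in both lines, and *ID3* was highest in SW1990 negative samples. The 250 bases before the RefSeq start of *BAMBI* and of the 3 ID genes are shown because these 4 genes are pathway targets whose changes are compared below. They were taken from RefSeq promoters of GRCh38.p14. Each had 1 exact match on the same chromosome and strand of GRCh37, and other chromosomes were not searched. The matches were at chr10:28966200-28966449 (plus strand) for *BAMBI*, chr20:30192842-30193091 (plus) for *ID1*, chr2:8821936-8822185 (plus) for *ID2* and chr1:23885993-23886242 (minus) for *ID3*. Capitals mark GGCGCC, a sequence that reads the same on both strands and that SMAD1 and SMAD5 are known to bind.
BAMBI: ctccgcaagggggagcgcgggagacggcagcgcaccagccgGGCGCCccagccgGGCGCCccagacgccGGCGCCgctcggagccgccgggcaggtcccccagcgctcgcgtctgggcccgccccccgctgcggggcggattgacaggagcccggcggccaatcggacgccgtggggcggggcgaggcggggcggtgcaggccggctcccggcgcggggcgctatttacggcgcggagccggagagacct
ID1: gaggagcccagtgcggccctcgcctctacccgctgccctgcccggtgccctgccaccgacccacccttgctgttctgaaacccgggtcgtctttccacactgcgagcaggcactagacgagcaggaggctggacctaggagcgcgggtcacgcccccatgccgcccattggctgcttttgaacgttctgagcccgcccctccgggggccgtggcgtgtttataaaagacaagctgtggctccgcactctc
ID2: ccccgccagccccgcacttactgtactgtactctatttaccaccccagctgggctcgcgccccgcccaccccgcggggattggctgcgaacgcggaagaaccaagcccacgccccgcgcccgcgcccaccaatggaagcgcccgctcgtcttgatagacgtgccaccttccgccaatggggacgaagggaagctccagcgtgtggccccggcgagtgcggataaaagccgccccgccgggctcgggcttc
ID3: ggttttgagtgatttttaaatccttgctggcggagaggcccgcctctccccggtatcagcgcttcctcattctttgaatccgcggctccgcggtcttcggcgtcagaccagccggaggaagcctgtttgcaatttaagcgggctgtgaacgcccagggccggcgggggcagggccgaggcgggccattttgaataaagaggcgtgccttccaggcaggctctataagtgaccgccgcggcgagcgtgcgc

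The window of *BAMBI* held 3 copies of GGCGCC, and those of the 3 ID genes held 0. Of the other members, the *BMPR2* window held 1 copy, 1 of the 3 *BMP4* windows held 1, and those of *SMAD6* and *BMPR1A* held 0. The shorter SMAD motif CAGAC, counted on both strands, was present 2 times in the *BAMBI* and *BMPR2* windows, 1 time in that of *ID3* and in 2 of the 3 of *BMP4*, and 0 times in those of *ID1*, *ID2*, *SMAD6* and *BMPR1A*. Of 35116 RefSeq promoters, 16.4% held GGCGCC and 38.0% held CAGAC within the same 250 bases. The *BAMBI* window was 81.2% G and C and that of *ID2* 69.2%. These letters describe the window alone, since more distant elements were not searched.

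*ID1* (chromosome 20, 30193086 to 30194318, plus strand) was at 407, 370 and 330 RPKM in SW1990 negative and 226, 241 and 258 in SW1990 positive samples. In CFPAC-1 it was at 174, 234 and 214 RPKM in negative and 104, 134 and 156 in positive samples. The groups did not overlap in either line. *ID1* was 1.52-fold lower in positive SW1990 cells (log2 -0.61, SE 0.15, limma, adjusted p = 0.0104) and 1.59-fold lower in positive CFPAC-1 cells (log2 -0.67, SE 0.15, limma, adjusted p = 0.00540), both under the 2-fold threshold. The changes in the lines differed by 0.06 (95% interval -0.41 to 0.53).

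*ID2* (chromosome 2, 8818975 to 8824591, plus strand) was at 53.8, 59.9 and 54.7 RPKM in SW1990 negative and 15.0, 16.9 and 17.0 in SW1990 positive samples. In CFPAC-1 it was at 94.3, 99.6 and 90.7 RPKM in negative and 40.5, 47.7 and 48.5 in positive samples. No sample of one group lay within the range of another. *ID2* fell 3.42-fold in SW1990 (log2 -1.77, SE 0.09, limma, adjusted p = 1.58e-07) and 2.08-fold in CFPAC-1 (log2 -1.06, SE 0.09, limma, adjusted p = 1.91e-05). It was the only one of the 9 genes called lower in both lines, as were 1.24% of all genes tested. Without CFPAC-1 positive replicate 1 the CFPAC-1 change was -0.98, just under 2-fold.

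*ID3* (chromosome 1, 23884417 to 23885992, minus strand) was at 84.7, 64.2 and 43.7 RPKM in SW1990 negative and 6.24, 3.14 and 6.01 in SW1990 positive samples. In CFPAC-1 it was at 0.124, 0.443 and 0.324 RPKM in negative samples, or 3, 12 and 8 reads, and at 0.987, 1.20 and 0.891 in positive samples, or 32, 28 and 11 reads. SW1990 negative samples were thus the highest by far, and the 4 groups did not overlap. *ID3* fell 12.4-fold in SW1990 (log2 -3.63, SE 0.35, limma, adjusted p = 1.18e-05) and rose 3.01-fold in CFPAC-1 (log2 1.59, SE 0.35, limma, adjusted p = 0.00471). Of all genes tested, 0.678% were called in opposite directions in the lines. The rise in CFPAC-1 rests on few reads: it was not called with a pseudocount of 1 (log2 0.65, adjusted p = 0.0558), nor by limma's voom on the recovered reads (log2 1.88, adjusted p = 0.0874).

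The summed RPKM of *ID1*, *ID2* and *ID3* was 489 ± 58.7 in SW1990 negative, 263 ± 17.1 in SW1990 positive, 303 ± 32.7 in CFPAC-1 negative and 178 ± 30.4 in CFPAC-1 positive samples (SD, n = 3). *ID1* made up 75.5%, 91.8%, 68.4% and 73.5% of that sum in the same order, as means of 3 samples. *ID2* made up 11.6%, 6.21%, 31.6% and 25.9%, and *ID3* 12.9%, 1.95%, 0.0951% and 0.590%. The share of *ID1* was thus highest in SW1990 positive samples, and *ID2* was the second ID gene in all groups except SW1990 negative, where *ID3* had a like share.

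**Figure D2:**
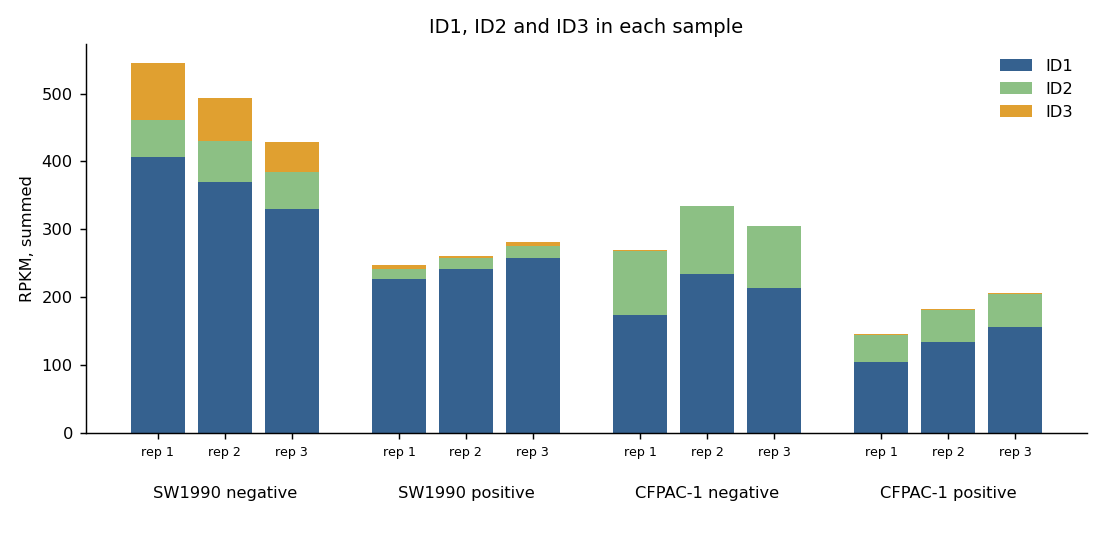
Stacked bars of *ID1*, *ID2* and *ID3* RPKM in each of the 12 samples, on a linear axis from 0. *ID1* is the largest part of every bar, *ID2* is the wider second part in CFPAC-1, and *ID3* is visible mainly in the SW1990 negative samples.

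Whether a change differed between the lines was tested as the change in SW1990 minus that in CFPAC-1, with a limma adjusted p under 0.05 as the threshold. By this test 5 of 9 genes differed, all with the more negative change in SW1990, against 26.9% of all genes tested in either direction and 17.8% in this direction. The differences in log2 fold change were -5.22 for *ID3* (SE 0.50, adjusted p = 2.75e-05), -2.89 for *BAMBI* (SE 0.25, adjusted p = 1.40e-05), -2.82 for *BMP2* (SE 0.26, adjusted p = 2.33e-05), -1.80 for *SMAD6* (SE 0.27, adjusted p = 0.000520) and -0.72 for *ID2* (SE 0.13, adjusted p = 0.00178), which is under 2-fold. For *BMP4* it was 0.57 (95% interval -0.02 to 1.15, adjusted p = 0.142), and 0.84 without CFPAC-1 positive replicate 3 (adjusted p = 0.00280). For *BMPR1A* it was -0.37 (95% interval -0.89 to 0.15). The median over all genes was itself -0.15 and became 0.00 with each sample centred on its median, a scaling that left the same 5 genes past the threshold.

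**Figure D3:**
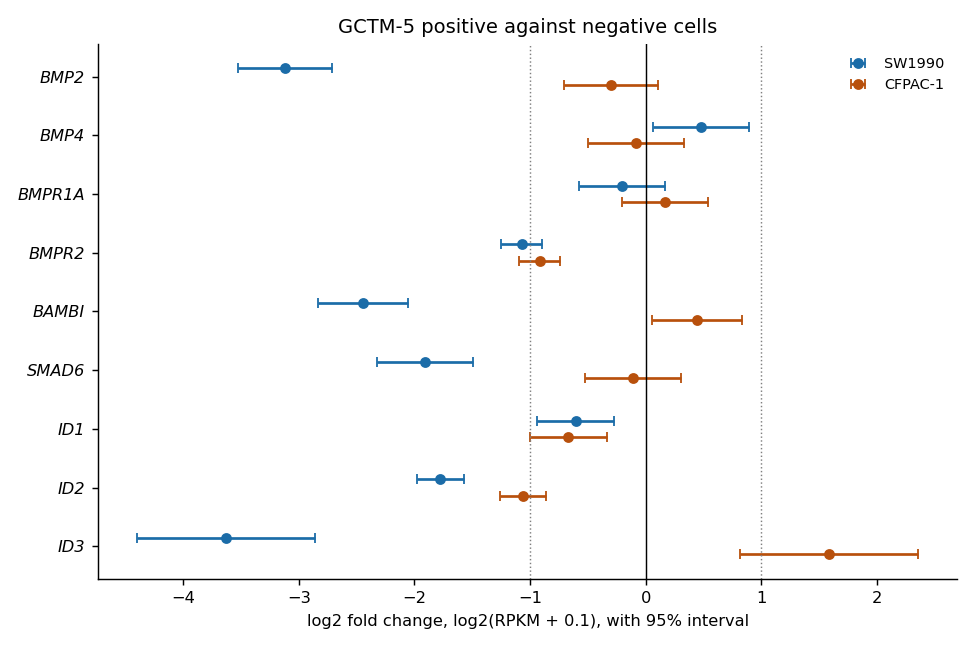
Log2 fold change of GCTM-5 positive against negative cells for the 9 genes in SW1990 and CFPAC-1, with 95% intervals from limma; dotted lines mark 2-fold. The points of the lines lie together for *BMPR2* and *ID1* and on opposite sides of 0 for *ID3*, at -3.63 and 1.59.

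The lines were also compared in level within one antigen state. Among negative cells, *ID3*, *BMP4* and *BMPR2* were called higher in SW1990 and *BAMBI* lower. That is 4 of 9 genes, near the share of all genes called, 36.9% (21.9% higher and 15% lower). The log2 differences of these 4, SW1990 minus CFPAC-1, were 7.38 for *ID3* (SE 0.35), 1.33 for *BMP4* (SE 0.19), 1.06 for *BMPR2* (SE 0.08) and -2.09 for *BAMBI* (SE 0.18). Centring each sample on its median took *BMPR2* to 0.88, under 2-fold. Over all genes the median of this comparison was 0.19 as deposited and 0.01 after centring.

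Among positive cells, 6 of 9 genes were called, against 28.5% of all genes (14.8% higher and 13.7% lower). *BMP4* and *ID3* were higher in SW1990, by 1.89 (SE 0.19) and 2.16 (SE 0.35) on the log2 scale. *BAMBI*, *BMP2*, *SMAD6* and *ID2* were lower in SW1990, with log2 differences of -4.98 (SE 0.18), -3.34 (SE 0.19), -2.34 (SE 0.19) and -1.47 (SE 0.09). The *BAMBI* difference, 31.5-fold, was the largest between positive cells, and *BAMBI* positive samples of SW1990 at 1.57 to 2.42 RPKM lay far under those of CFPAC-1 at 49.0 to 76.3. The comparisons within and between lines share samples.

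**Figure D4:**
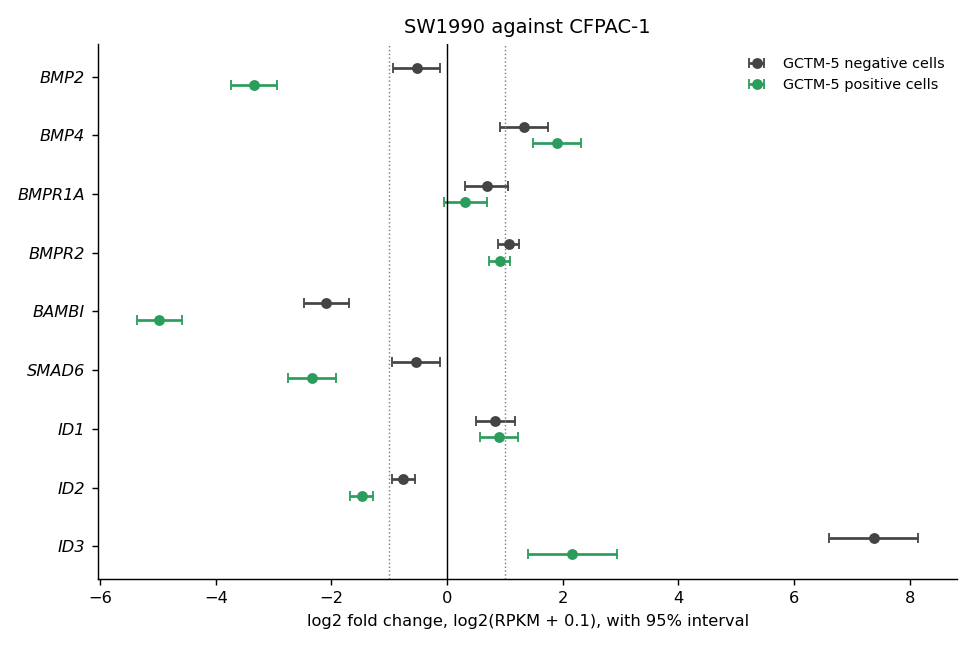
Log2 fold change of SW1990 against CFPAC-1 in GCTM-5 negative and in positive cells for the 9 genes, with 95% intervals from limma; dotted lines mark 2-fold. *BMP4* is to the right of 0 in both states, *BAMBI* to the left in both, and *ID3* is at 7.38 in negative and 2.16 in positive cells.

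Ordered by mean RPKM over the 4 groups, the genes fell into different patterns. *ID1*, *ID3*, *BMPR2* and *BMPR1A* were highest in SW1990 negative samples, and *BMP2*, *SMAD6* and *ID2* in CFPAC-1 negative samples. *BMP4* was highest in SW1990 positive and *BAMBI* in CFPAC-1 positive samples. Neighbouring groups in the order of means did not overlap for *ID2* or *ID3*. They overlapped between SW1990 positive and CFPAC-1 negative samples for *ID1* and *BMPR2*, between the CFPAC-1 groups for *BMP4*, *BAMBI*, *SMAD6* and *BMP2*, between CFPAC-1 positive and SW1990 negative samples for *BMP2*, and at every step for *BMPR1A*. The highest group mean was 216 times the lowest for *ID3*, 33.2 times for *BAMBI*, 15.3 times for *BMP2* and between 1.60 and 5.81 times for the other genes tested.

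A further 58 genes of the pathway, in lists of ligands, receptors, SMADs, antagonists, targets and E proteins, gave the same comparison a wider base, and 42 of them passed the filter. These lists too were chosen with earlier results of these data known. In SW1990, 2 of the 42 were called higher, beside 4.59% of all genes, and 10 lower, beside 7.48%, in positive cells. In CFPAC-1, 2 were called higher, beside 5.65% of all genes, and 2 lower, beside 4.13%. The filter was a mean over all 12 samples, so some of the 42 passed through 1 line alone. *SMAD4*, *ATOH8* and *DLX5* were at 0 reads in CFPAC-1, where *ACVRL1* and *BMPER* had at most 2 reads in a sample. None of these could be called in CFPAC-1, nor could *ID4*, at 0 reads in SW1990, be called in that line. The median log2 fold change of the 42 was -0.42 in SW1990 and -0.04 in CFPAC-1. It was -0.48 and -0.08 when genes at 0 reads in a group were set at their bound or left out. The medians over all genes were -0.04 and 0.05.

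None of the 4 other ligands tested was called in either line, beside 12.1% of all genes in SW1990 and 9.78% in CFPAC-1. *BMP6*, the most abundant of the 4, was at 6.98 ± 0.360 RPKM in SW1990 negative, 7.29 ± 0.568 in SW1990 positive, 8.90 ± 0.643 in CFPAC-1 negative and 10.4 ± 0.531 in CFPAC-1 positive samples (SD, n = 3). It was named after its values were seen. Of the 9 other receptors and co-receptors, 1 was higher and 2 lower in positive SW1990 cells, beside 4.59% and 7.48% of all genes. *RGMA*, a BMP co-receptor, rose from 3.72 ± 0.505 to 13.5 ± 1.09 RPKM (log2 1.84, limma, adjusted p = 0.000141), a call lost with a pseudocount of 0.01. *ACVRL1*, a type I receptor best known in endothelium, fell from 5.08 ± 0.676 to 0.564 ± 0.237 RPKM (log2 -3.03, limma, adjusted p = 1.15e-05). *ENG*, its co-receptor, fell from 15.7 ± 1.33 to 7.59 ± 1.11 RPKM (log2 -1.05, limma, adjusted p = 0.00118), and was under 2-fold in 4 of 24 alternatives, the lowest change being -0.93. In CFPAC-1 only *NEO1*, a receptor of RGM proteins, was called of the 9, beside 9.78% of all genes. Its log2 fold change was -1.22 (limma, adjusted p = 0.00490), which became -0.91 and was not called with a pseudocount of 1. *ACVRL1* had at most 2 reads in a CFPAC-1 sample.

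Among the SMADs and their regulators, 2 of 10 were lower in positive SW1990 cells, beside 7.48% of all genes. None was called in CFPAC-1, beside 9.78%. *SMAD7*, the other inhibitory SMAD gene, was at 4.10 ± 0.229 RPKM in SW1990 negative and 0.751 ± 0.148 in SW1990 positive samples, and at 7.14 ± 0.328 and 7.11 ± 0.102 in CFPAC-1 negative and positive samples. It fell by 2.32 on the log2 scale in SW1990 (limma, adjusted p = 2.96e-07), and the changes in the lines differed by -2.31 (limma, adjusted p = 1.13e-05). Of the SMADs that BMP receptors phosphorylate, *SMAD9* fell from 1.86 ± 0.304 to 0.385 ± 0.123 RPKM in SW1990 (log2 -2.04, limma, adjusted p = 0.000260). *SMAD1* had group means of 7.64 to 14.5 RPKM and *SMAD5* of 13.1 to 20.4 RPKM over the 4 groups. Neither was called in either line.

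*SMAD4*, the partner of these SMADs, separated the lines completely. It was at 5.86, 6.01 and 6.44 RPKM in SW1990 negative and 5.22, 5.28 and 5.20 in SW1990 positive samples, and at 0 reads in all 6 CFPAC-1 samples. Against a limit of 3 reads per library, *SMAD4* was at least 364-fold higher in SW1990 than in CFPAC-1 among negative cells and at least 239-fold higher among positive cells. Such limits cover counting error only.

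Of the 10 extracellular antagonists and modulators tested, 4 were lower and 1 higher in positive SW1990 cells, beside 7.48% and 4.59% of all genes. *BMPER*, which binds BMPs outside the cell, fell from 11.2 ± 2.26 to 1.14 ± 0.560 RPKM (log2 -3.29, limma, adjusted p = 1.19e-05), and *SOSTDC1*, a secreted antagonist, fell from 3.64 ± 0.676 to 0.732 ± 0.113 (log2 -2.16, limma, adjusted p = 9.09e-05). *FST*, follistatin, which binds activins and some BMPs, rose from 4.17 ± 0.932 to 22.8 ± 1.94 RPKM in SW1990 (log2 2.44, limma, adjusted p = 0.000228) and from 0.152 ± 0.144 to 1.94 ± 0.639 in CFPAC-1 (log2 3.10, limma, adjusted p = 8.41e-05). *FST* was thus called higher in both lines. *BMPER* had at most 2 reads in any CFPAC-1 sample.

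Of the 6 other targets tested, *ATOH8* fell from 4.30 ± 0.267 to 0.146 ± 0.0438 RPKM (log2 -4.17, limma, adjusted p = 1.72e-07) and *HEY1* from 7.02 ± 0.265 to 0.535 ± 0.449 (log2 -3.70, limma, adjusted p = 2.95e-05) in SW1990. Both encode basic helix-loop-helix transcription factors. *ATOH8* was at 0 reads in CFPAC-1, and *ID4*, the remaining ID gene, was at 0 reads in SW1990. In CFPAC-1, *ID4* fell from 2.74 ± 0.643 to 0.653 ± 0.251 RPKM (log2 -1.94, limma, adjusted p = 0.000300). The antigen positive cells of that line were thus called lower in *ID2* and *ID4*. They were also 1.59-fold lower in *ID1*, under the threshold, and higher in *ID3*, on few reads. *MSX1*, a homeobox gene, was at 1.59, 1.11 and 0.932 RPKM in CFPAC-1 negative and 2.84, 1.40 and 5.59 in CFPAC-1 positive samples, which overlapped. Its log2 fold change of 1.19 (limma, adjusted p = 0.0228) was called, but was not called in 8 of 24 alternatives, with 0.71 as its lowest value.

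None of the 3 E proteins, which ID proteins bind, was called within a line, beside 12.1% of all genes in SW1990 and 9.78% in CFPAC-1. *TCF3* was at 28.6 ± 1.70 RPKM in SW1990 negative and 20.1 ± 2.30 in SW1990 positive samples, and at 6.44 ± 0.551 and 7.44 ± 0.668 in CFPAC-1 negative and positive samples (SD, n = 3). *TCF12* was at 17.6 ± 1.05, 14.3 ± 0.972, 14.2 ± 0.272 and 11.3 ± 0.829 RPKM in the same order. *TCF4* was at 0.823 RPKM or less in every group mean, with 6 to 30 reads in SW1990 negative samples and 0 reads in SW1990 positive samples. Against a limit of 3 reads per library, its mean was at least 5.75-fold lower in positive SW1990 cells. At such levels it could not pass 2-fold on the scale of log2(RPKM + 0.1). The changes of *TCF3* in the lines differed by -0.72 (SE 0.16, limma, adjusted p = 0.00596).

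**Figure D5:**
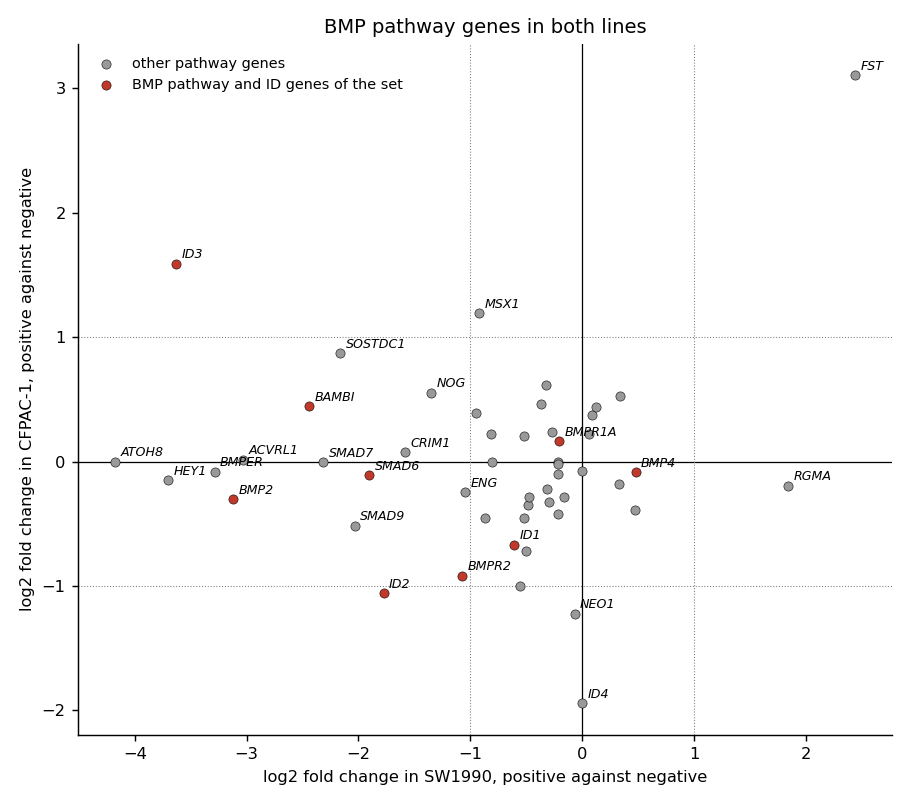
Log2 fold change of positive against negative cells in SW1990 (horizontal axis) and in CFPAC-1 (vertical axis) for the 9 genes tested (red) and the 42 other pathway genes (grey); dotted lines mark 2-fold. *BMP2*, *BAMBI* and *SMAD6* lie at the left with *SMAD7*, *ACVRL1*, *BMPER*, *HEY1* and *ATOH8*, within 2-fold of 0 on the vertical axis. *ATOH8* was at 0 reads in CFPAC-1, and *ACVRL1* and *BMPER* had at most 2 in a sample. The pseudocount thus fixes these 3 genes near 0 on that axis. *FST* lies past 2-fold on both axes.

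Some markers of other cell types and states also changed in SW1990. Of 5 mesenchymal genes (*VIM*, *ZEB1*, *ZEB2*, *CDH2* and *FN1*), 5 were called lower in positive SW1990 cells, beside 7.48% of all genes. In positive CFPAC-1 cells 1, *ZEB1*, was called lower, beside 4.13%. The paper had already named *ZEB1*, *ZEB2* and *FN1* from these data as higher in negative cells. The summed RPKM of the 5 mesenchymal genes was 1205 to 1373 in SW1990 negative, 199 to 372 in SW1990 positive, 551 to 752 in CFPAC-1 negative and 420 to 589 in CFPAC-1 positive samples. *VIM* made up most of the sum in every group. Of the 6 duct epithelium genes, 5 were called higher in positive SW1990 cells, beside 4.59% of all genes, and 0 in positive CFPAC-1 cells, beside 5.65%.

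Of 6 stromal fibroblast genes, 2 of the 3 tested, *PDGFRB* and *LUM*, were called lower in positive SW1990 cells, beside 7.48% of all genes. The summed RPKM of the 6 was 12.7 to 22.6 in SW1990 negative, 3.90 to 4.86 in SW1990 positive, 1.26 to 1.72 in CFPAC-1 negative and 1.59 to 2.39 in CFPAC-1 positive samples. Of the collagen and matrix genes on that list, *COL1A1* had 404 to 481 reads in SW1990 negative, 173 to 256 in SW1990 positive and 73 to 225 in CFPAC-1 positive samples, and 106 to 136 in CFPAC-1 negative samples. *COL1A2*, *COL3A1* and *DCN* were at 5 reads or fewer in every sample. The 3 endothelial genes summed to 14.8 to 18.8 RPKM in SW1990 negative, 1.47 to 2.05 in SW1990 positive, 0.226 to 0.485 in CFPAC-1 negative and 0.144 to 0.349 in CFPAC-1 positive samples. *CDH5* made up most of the sum in SW1990 and had at most 1 read in a CFPAC-1 sample, while *PECAM1* and *VWF* were at group means of 0.717 RPKM or less in all 4 groups. Of 3 leukocyte genes, *CD14* was lower in the positive cells of both lines, *PTPRC* had at most 3 reads and *CD3E* at most 1 read in a sample, and the sum was 0.905 to 1.81, 0.268 to 0.326, 8.61 to 9.57 and 2.60 to 4.38 RPKM in the same order. The part of these markers in the changes of the BMP pathway genes was not tested.

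The genes most like each member across the 12 samples were taken as those with the smallest root mean square difference of log2(RPKM + 0.1), after centring each gene on its mean, among the 13258 genes whose mean RPKM reached 1. For *BMP2* these were *TBC1D9* (0.36) and *SMAD7* (0.37), against an SD of 1.55 for *BMP2* itself. For *BAMBI* they were *RASGRF2* (0.25) and *FAM155A* (0.33), with an SD of 2.07, and for *SMAD6* *EPHA4* (0.20) and *HIST1H2AC* (0.28), with an SD of 1.05. For *ID2* they were *ATP8B3* (0.27) and *SOX4* (0.28), and for *ID1* *FAM179B* (0.16) and *HCFC1R1* (0.17). For *ID3*, whose SD was 2.92, the nearest were *S1PR1* (0.58) and *BMPER* (0.69), so that 2 of the nearest genes, *SMAD7* and *BMPER*, were themselves in the pathway lists. *BMP4* was nearest to *RPUSD1* (0.19) and *EFNB2* (0.19), *BMPR2* to *ATM* (0.17) and *TSC22D1* (0.19), and *BMPR1A* to *USP19* (0.15) and *UBTF* (0.15).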

How the data were processed

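RNA-seq of 12 samples was analysed, in 4 groups set by cell line and GCTM-5 staining. The deposited values are RPKM, which the authors made with QuasR from reads aligned to hg19 (GRCh37). The annotation, use of strand and handling of reads that match several genes are not given in the sources used here. The paper names a TruSeq kit and the labels a SureSelect strand-specific kit.

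Library totals and whole reads were recovered from the values with the lengths of 2221 single-exon genes (GENCODE, GRCh37), to within 0.01 of a read, for all 19654 genes above 0. The method was tested on simulated data, in which 12 of 12 totals came out exactly. It is not known if the authors counted reads or pairs. Replicates of a group differed by more than sampling noise.

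With limma 3.58.1 in R 4.3.3, the 4 group means of log2(RPKM + 0.1) were fitted (lmFit, contrasts.fit, eBayes with trend) for genes whose mean RPKM reached 0.1. Comparisons were 2-sided. The thresholds of 2-fold and p under 0.01 follow the paper, which used TCC. For the difference between lines, the threshold was an adjusted p (Benjamini-Hochberg) under 0.05. On simulated data for the SW1990 comparison, 98% of genes changed 4-fold were called in each direction, among 16236 genes. The changed genes were drawn from those whose mean RPKM reached 1, so genes of lower mean level were not covered. Fold changes against groups at 0 reads are bounds against 3 reads in each library. Alternatives covered pseudocounts, filters, scaling, the samples in the fit, a replicate block, eBayes without a trend, thresholds, voom and each sample left out.

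The members and the lists were chosen with earlier results of these data known. All 10 members are named, together with up to 3 called genes with the largest changes of each further list, the SMADs that BMP receptors phosphorylate, *SMAD4*, *SMAD7*, the E proteins and the 2 genes most like each member. Gene coordinates are those of GENCODE on GRCh37, and promoter sequences those of RefSeq (GRCh38.p14). Tables and figures were made with pandas 2.3.3 and matplotlib 3.10.9 under Python 3.11.15.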

Additional observations from a re-analysis of the deposited data

Results flagged for a closer look

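For 5 of the 9 genes tested, the change from GCTM-5 negative to positive cells differed between SW1990 and CFPAC-1 by a test of the difference itself (limma, Benjamini-Hochberg adjusted p under 0.05). Of all genes tested, 26.9% passed this threshold, and 17.8% did so with the more negative change in SW1990. *ID3* differed by -5.22 on the log2 scale, lower in 3 of 3 positive SW1990 samples than in any negative one and higher in 3 of 3 positive CFPAC-1 samples. *BAMBI* differed by -2.89 and *BMP2* by -2.82, each with SW1990 groups that did not overlap and CFPAC-1 groups that did. *SMAD6* differed by -1.80, and by -1.50 without CFPAC-1 positive replicate 3. *ID2* differed by -0.72, with groups that did not overlap in either line, and was no longer called where a difference of over 2-fold was also required. Each difference is the change in SW1990 minus that in CFPAC-1.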

How the results depend on the processing

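For 45 changes of single genes, 1045 of 1071 values under alternatives kept their direction and their side of the threshold, 12 moved past it, 7 fell short of it and 7 turned. The 2 genes called in CFPAC-1 became 1 with a pseudocount of 1 and with voom on the recovered reads, both of which lost *ID3*, and 4 with no fold threshold. With no fold threshold the 4 genes called between negative cells became 7. With each sample left out in turn, 6 to 6 genes were called in SW1990, 1 to 2 in CFPAC-1, 5 to 6 between lines, 4 to 4 between negative cells and 6 to 7 between positive cells. The 1 came without CFPAC-1 positive replicate 1, and the 6 and 7 without CFPAC-1 positive replicate 3, which added *BMP4* and *ID1*. None of the changes that turned was past a threshold as reported. Over the samples left out, the CFPAC-1 change ran from -0.36 to 0.11 for *BMP4*, from -0.011 to 0.26 for *BMPR1A* and from -0.40 to 0.052 for *SMAD6*, and the difference between lines from -0.096 to 0.20 for *ID1*. With each sample centred on its median, 45.8% of the CFPAC-1 calls over all genes were increases in place of 57.7%, and 50.0% of those that differed between lines had the higher change in SW1990 in place of 34.0%. Same-numbered samples of a line correlated at -0.07 to 0.33 in their deviations from group means, and 3 of 12 samples correlated best with their own number, so numbers were not taken to pair samples. With the replicate block, 6 genes were called in SW1990, 2 in CFPAC-1, 5 between lines, 4 between negative cells and 6 between positive cells, which are the counts without it. Depth limits *BMP7*, with 1 read in all, and *ID3* in CFPAC-1, with 3 to 32 reads in a sample.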
